A study of Mus musculus with 2 samples.

Results

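Periosteal fibroblasts in which neither Pi16 nor Dpp4 was detected numbered 129 of 9169 cells kept in 2 single-cell RNA-seq libraries of mouse long-bone periosteum, 2 in library 1 and 127 in library 2. The members were selected on measured UMIs of single genes. A cell entered the fibroblast gate when it held no UMI (unique molecular identifier, 1 per captured transcript) of Ptprc, the pan-leukocyte antigen CD45, none of Tnmd, the tendon cell marker tenomodulin, at most 5 UMIs of the osteoblast genes Bglap2 and Ibsp together, and at least 1 UMI of at least 4 of the 7 genes Pdgfra, Clec3b, Mfap5, Gas1, Dcn, Cd34 and Tnxb. Gate cells with 0 UMIs of Pi16 and Dpp4 summed are called negative here, and those with 2 or more, 11 in library 1 and 129 in library 2, are called positive. Another 3 and 30 gate cells held exactly 1 UMI and were kept apart. The negative cells made up 12.5% of the 16 gate cells of library 1 and 44.4% of the 286 of library 2.

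Both libraries came from C57BL6 mice of 4 weeks labelled WT, with no treatment and no second group, and both were made from periosteal cells of femurs and tibias sorted with CD45, CD31, Ter-119 and DAPI. How many mice were pooled is not given in the sources used here, so animals pooled within a library cannot be told apart. Library 1 held 100808649 UMIs in 9932 barcodes, 6276 of which were kept, and library 2 held 33306452 UMIs in 3659 barcodes, 2893 of which were kept. The libraries shared 8 barcodes, none of them in a negative cell. Negative cells of library 2 had a median of 8512 UMIs (791 to 30306) and 2668 genes, and the 2 of library 1 had 12361 and 12415 UMIs. With 2 cells in library 1, a test over libraries was not made, since a class had to hold at least 5 cells in each library. The values below are therefore those of library 2, with library 1 beside them, and every interval is an exact 95% interval that covers counting error only, not the difference between mice or libraries.

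The WT label and the reporter features of the count tables differed. The fluorescent reporter tdTomato had 4769 UMIs over all barcodes of library 2, and 55 of 127 negative cells held at least 1 (43.3%, 95% interval 34.5 to 52.4%), beside 47 of 129 positive cells (36.4%). Among the 1176 cells without Ptprc that met no gate, which had a median of 4176 UMIs, the share was 18.3%, whereas it was 40.6% in Tnmd cells, 46.7% in the chondrocyte gate and 49.0% in the osteoblast gate. EGFP, the enhanced green fluorescent protein, had 6967 UMIs in library 2, of which 3 lay in negative cells and 4921 in the 359 cells of the osteoblast gate (no Ptprc and over 5 UMIs of Bglap2 and Ibsp). In library 1, tdTomato had 1528 UMIs and EGFP had 0, and neither negative cell held a reporter UMI. Cells of both sexes were present. In library 2, 75 negative cells held UMIs of Xist, the X-inactivation transcript of female cells, and none of 4 Y-linked genes, and 23 held Y-linked UMIs alone, whereas the positive cells held 53 and 37. These shares are 59.1% and 18.1% of the negative cells against 41.1% and 28.7% of the positive cells in library 2. A further 28 negative and 37 positive cells held neither kind of UMI, and 1 and 2 held both. Values within each sex are given below where they change a direction.

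The periosteum is the sheath on the outer surface of bone. Its inner layer holds the cells that make bone during growth and repair, and its outer layer is fibrous tissue of fibroblasts, collagen, vessels and nerves. Across many mouse tissues, fibroblasts that carry the peptidase inhibitor Pi16 and the surface peptidase Dpp4 are known from the adventitia and fascia, and they are often set against Col15a1 fibroblasts, which lie within the tissue near basement membranes. Lack of both genes is a negative criterion, and fibroblasts of several kinds can meet it. Library size also bears on it, because a cell with few UMIs can miss a transcript that it contains.

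The share of negative cells was similar over the range of depths. When the 286 gate cells were split by depth into 3 groups, 49.5% of the shallowest (721 to 7296 UMIs) were negative (95% interval 39.1 to 59.9%), in the middle group (7301 to 10916) 43.2%, and in the deepest group (10972 to 54800) 40.6% (95% interval 30.7 to 51.1%). The plot of Pi16 and Dpp4 UMIs against depth shows negative cells between 791 and 30306 UMIs, while positive cells reached 54800. At the border of the gate, 20 negative cells held exactly 4 of the 7 fibroblast genes, with a median of 7588.5 UMIs, and 35 cells that met every other condition held 3 and stayed outside, with a median of 8373 UMIs. All 7 genes were detected in 66 of the 127 negative cells and in 90 of the 129 positive cells.

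**Figure D1:**
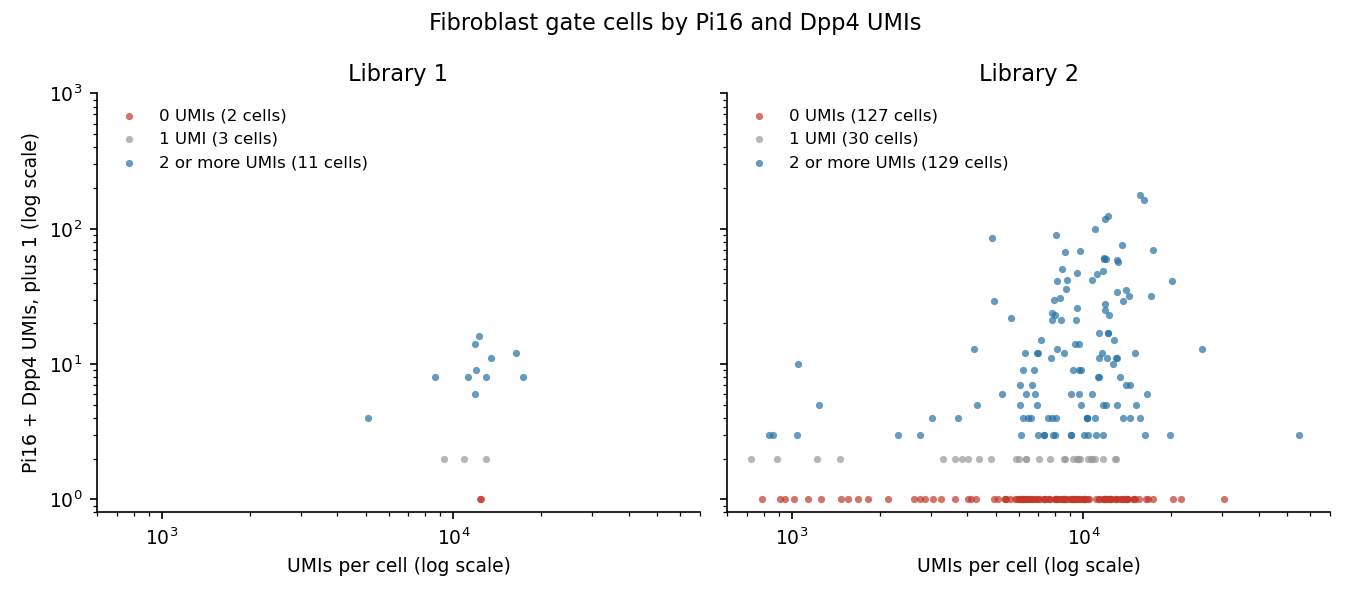
Each point is a cell of the fibroblast gate, with its total UMIs on the x axis and its Pi16 and Dpp4 UMIs plus 1 on the y axis, both on log scales, for library 1 (left) and library 2 (right). The 127 negative cells of library 2 lie between 791 and 30306 UMIs, and library 1 has 2.

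The genes that define the gate are a description of the choice and were not tested. Dcn, which encodes the small proteoglycan decorin, was the most abundant of the 7, at 10454 CPM (UMIs of the gene per 1000000 UMIs of the summed cells) in library 1 and 12388 CPM in library 2. Pdgfra, the receptor for platelet-derived growth factor that marks fibroblasts, reached 363 and 309 CPM, and Gas1, a membrane protein that binds Hedgehog ligands, 1816 and 955 CPM. Single negative cells of library 2 held between 0 and 17 UMIs with a median of 2 for Pdgfra. For Gas1 they held between 0 and 49 UMIs with a median of 6. In the 1176 cells of library 2 without Ptprc that met no gate, Pdgfra stood at 3.97 CPM and Dcn at 346 CPM. Mfap5, a microfibril protein, was lower in the negative than in the positive cells, at 1240.2 against 4448 CPM in library 2 and 1614 against 2892 CPM in library 1. Clec3b, which encodes tetranectin, stood at 1732 against 3211 CPM, Cd34 at 504 against 1245 CPM and the tenascin gene Tnxb at 517 against 790.1 CPM in library 2. Gas1 and Dcn lay the other way, Gas1 at 683 CPM and Dcn at 9001 CPM in the positive cells. The 4 genes given as markers of these cells were therefore all present, but Mfap5 marked the positive cells more strongly.

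Fibroblast genes outside the gate were also present. Col3a1, the type III collagen chain, reached 14605 CPM in the negative cells of library 2, with UMIs in 126 of 127 cells, against 645 CPM in the osteoblast gate and 211 CPM in the chondrocyte gate (at least 4 of 8 cartilage genes). Lum, the collagen-binding proteoglycan lumican, stood at 2136 CPM and was found in 111 cells. Ly6a, the surface protein Sca-1, stood at 2051 CPM in library 2 and 1170.5 CPM in library 1. Adipoq, the adipokine that marks marrow stromal cells, had 0 UMIs in the negative cells of both libraries, and Lepr, the leptin receptor, had 18 UMIs in 7 cells of library 2. The endothelial list of 8 genes had 17 UMIs in all in library 2, 11 of them of Tek, with Cdh5 at 0. Of the 12 osteoblast genes Sp7, Dmp1 and Mepe were at 0, and Spp1 led with 45 of 95 UMIs.

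The negative cells were not uniform. Among genes with a mean of at least 0.1 UMIs after each cell was thinned to 3000 UMIs (113 cells, 14 shallower ones left out), the variance over the mean was highest for Hbb-bs, the beta-globin of red cells, at 732, for Prg4, the lubricin of joint and tendon surfaces, at 451, and for Msmp, a secreted microseminoprotein, at 221. The 15 most variable genes further held Hbb-bt, Hba-a1, Hba-a2, Nupr1, Hist1h2ap, Col1a1, Gm42418, Col2a1, Malat1, Dcn, Col3a1 and Cxcl14. A single cell held 74.6% of the thinned Msmp UMIs, 52.1% of those of Hbb-bs and 68.2% of those of Col2a1, the cartilage collagen. Prg4 was spread more widely, with UMIs in 37 thinned cells and 25.3% of them in the highest one. Col1a1 and Col3a1, by contrast, were found in 110 and 112 of the 113 thinned cells, and no cell held over 4.89% of either.

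Marker lists divided the 127 cells further, by thresholds chosen after the values were seen. At least 20 globin UMIs were found in 4 cells, at least 3 of 7 B lymphoid genes in 2, at least 3 of 6 lining fibroblast genes (Prg4, Htra4, Clic5, Tspan15, Crtac1 and Hbegf) in 8 of those left, at least 5 of 12 tenocyte genes in 16 and at least 3 of 8 mural cell genes in 3. The remaining 94 cells, 74.0% of the class (95% interval 65.5 to 81.4%), met none of these rules, and 55 of them held all 7 gate genes. Among the 129 positive cells the same order of rules took 1, 6, 3, 1 and 1 cells and left 117. The 8 cells with lining genes had a median of 12075.5 UMIs, the 16 with tenocyte genes 9387.5 and the remaining 94 had 8100 UMIs. Both negative cells of library 1 fell among the remaining cells, 1 of them with 4 tenocyte genes and so just below that threshold. Cells at the border of the gate, with exactly 4 of its 7 genes, made up 5 of the 8 lining-gene and 7 of the 16 tendon-gene cells, but 7 of the 94 remaining cells. The map of single cells shows these subsets side by side.

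**Figure D2:**
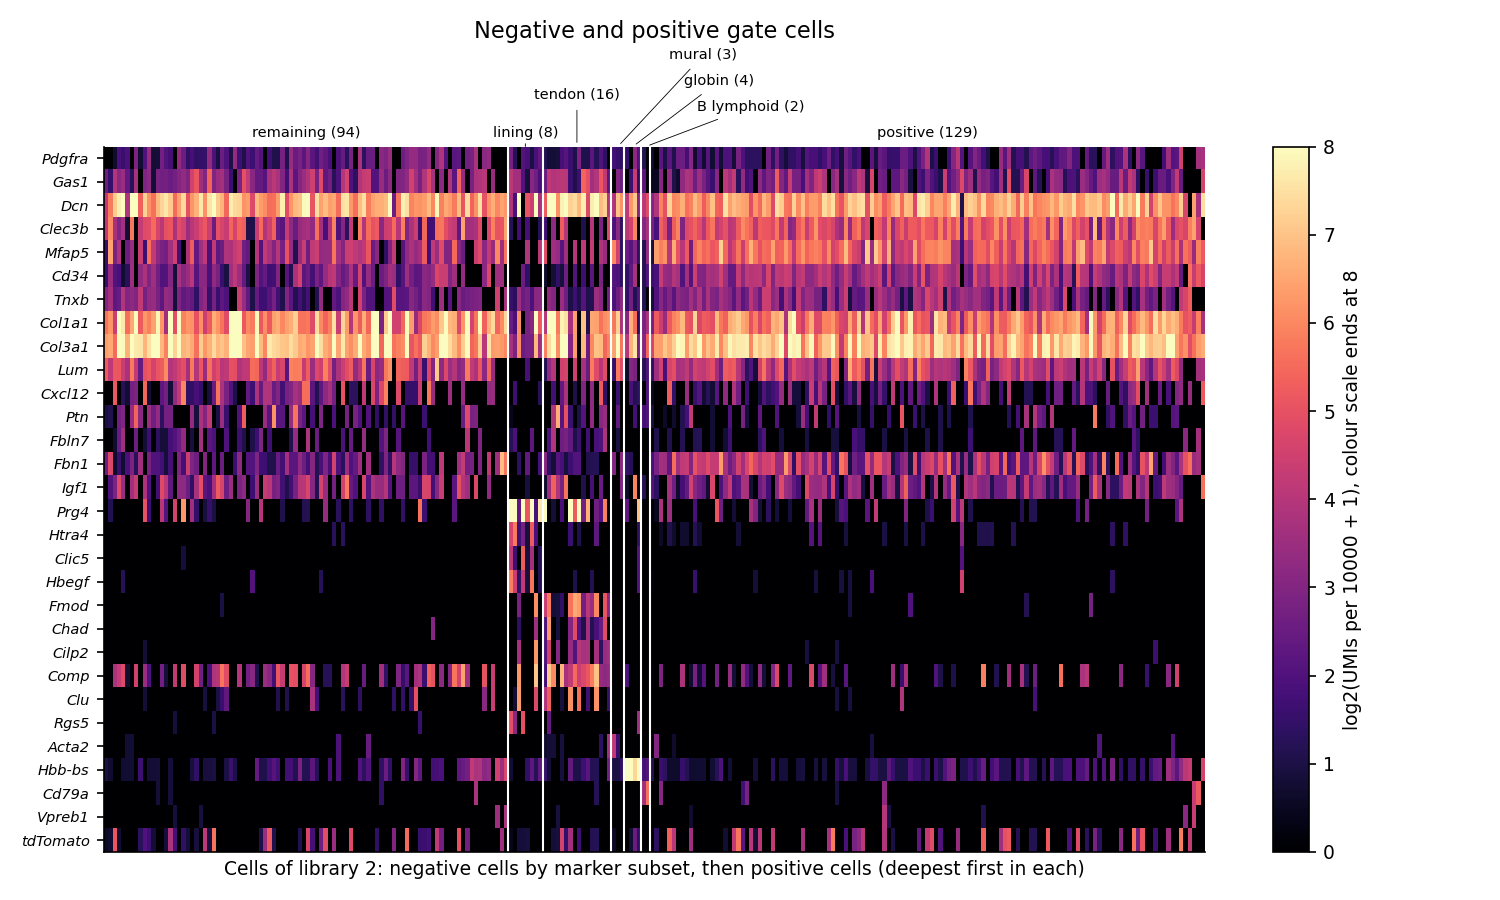
Each column is a cell of library 2 and each row a gene, and the colour is a log2 scale of depth-scaled UMIs with 1 added. Columns are the 94 remaining, 8 lining-gene, 16 tendon-gene, 3 mural-gene, 4 globin and 2 B lymphoid negative cells, then the 129 positive cells. Prg4 stands out in the lining-gene and tendon-gene cells, Fmod, Chad and Cilp2 in the tendon-gene cells, and Fbn1 and Mfap5 in the positive cells. The genes shown outside the gate were chosen after their values were seen.

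In the 8 cells with lining genes, Prg4 alone took 86961 CPM, against 361 CPM in the 94 remaining cells and 202 CPM in the positive cells. Htra4, a secreted serine protease, reached 1872 CPM there, and Hbegf, a ligand of the EGF receptor, 2625 CPM. In the remaining cells these 2 genes had 2 and 6 UMIs in all. Among the genes lower in these cells, Lum stood at 28.2 against 2736 CPM, and Mfap4, Postn and Eln had 0 UMIs in the 8 cells. Rgs5, a gene of the mural list, reached 1317 CPM in these 8 cells, from 3 of them and with 65.0% in 1 cell, and 0 CPM in the 3 cells set apart by mural genes. In the leading genes of these cells the rule's own genes Prg4, Htra4, Hbegf, Clic5 and Tspan15 were therefore joined by Rgs5, Cilp2, Col22a1, Cystm1, Fmod and F13a1. Of these, Cilp2 and Fmod came from 2 cells each, with 79.5% and 86.4% of their UMIs in 1 cell, and 78.6% of the Cystm1 UMIs lay in 1 cell.

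Fmod, Chad, Comp, Scx and Kera belong to the list that set the 16 tendon-gene cells apart, so their levels there and their lack in the remaining cells follow from the choice. The 16 cells held Fmod, the proteoglycan fibromodulin, at 2645 CPM, Chad, the matrix protein chondroadherin, at 1145 CPM and Comp, the cartilage oligomeric matrix protein, at 4417 CPM. In the remaining negative cells Fmod had 1 UMI and Chad had 3, while Comp still stood at 906 CPM. Prg4 was at 23744 CPM in the 16 cells. The tendon transcription factor Scx reached 63.3 CPM, beside 514 CPM in the 101 cells that held Tnmd and were kept out of the gate for it, and Kera, the tendon and corneal proteoglycan keratocan, 44.3 beside 874 CPM. Fmod did not differ in that direction, with 2495 CPM in the Tnmd cells. Apoe, apolipoprotein E, stood at 2588 CPM in the 16 cells and 826 CPM in the remaining ones. Cytl1, a secreted protein of cartilage, had 163 UMIs in the 16 cells and 0 in the remaining ones, and Col2a1 had 227 and 15. Both came from 4 of the 16 cells, with 53.4% of Cytl1 and 67.4% of Col2a1 UMIs in 1 cell.

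The negative cells were next compared with the positive cells at matched depth. In library 2, 107 pairs of cells were formed within 0.1 log10 units of UMIs, with medians of 9273 and 9641 UMIs and sums of 1033068 and 1056178 UMIs. Since Pi16 and Dpp4 chose the classes, the comparison is a description and has no test. Of 8155 genes with at least 20 UMIs over both sums and outside the gate, 134 (1.64%) were at least 2-fold higher in the negative cells and 147 (1.80%) at least 2-fold lower, on the scale of CPM plus 10, and the median log2 ratio over all of them was -0.05. In library 1 the sums of 2 pairs had the same direction for 37 of the 134 and for 87 of the 147 genes, where the sums were 24776 and 24182 UMIs. A gene without UMIs in either sum of library 1 was not counted as having the same direction, so the other genes were not all opposite. The number of opposite genes and the share over all 8155 genes were not counted, so these counts are no measure of agreement. The plot of the 2 sums shows the genes with the largest ratios and the same direction in library 1.

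**Figure D3:**
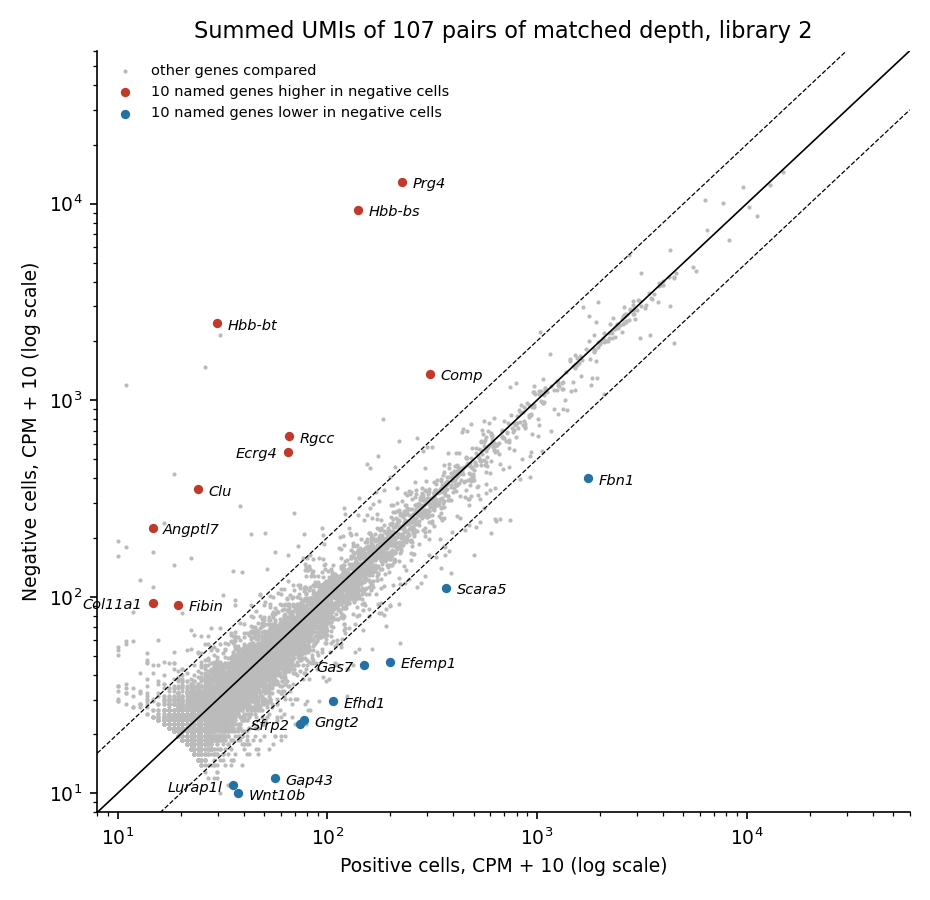
Each point is a gene, with CPM plus 10 in the summed positive cells on the x axis and in the summed negative cells on the y axis, both on log scales, for 107 pairs of library 2. The solid line marks equal levels and the broken lines 2-fold differences. Named genes are the 10 with the largest log2 ratios in each direction that had the same direction in library 1, among them Prg4 above and Fbn1 below the lines.

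Among the 10 named genes that were lower in the negative cells, the one with the most UMIs was Fbn1 (chromosome 2, 125300594 to 125507993, minus strand, GRCm38), which encodes the microfibril protein fibrillin-1. It had 403 UMIs in the matched negative and 1838 in the matched positive cells, a ratio of 0.224 (95% interval 0.201 to 0.250), and 23 against 133 UMIs in library 1. Single negative cells of library 2 held between 0 and 42 UMIs with a median of 2 for Fbn1, and positive cells between 0 and 110 UMIs with a median of 12, so single cells of the classes overlapped. Scara5, a ferritin receptor of adventitial fibroblasts, had 104 against 379 UMIs, a ratio of 0.281 (95% interval 0.224 to 0.349), and 11 against 28 UMIs in library 1. Efemp1, which encodes fibulin-3, had 38 against 200 UMIs, and Efhd1, a mitochondrial calcium-binding protein, 20 against 102. Sfrp2, a secreted Wnt modulator, had 13 against 68 UMIs in library 2 and 0 against 21 in library 1, but came from 4 negative and 11 positive cells only. Wnt10b, a Wnt ligand, had 0 against 29 UMIs, at least 9.46-fold lower against a floor of 3 counts over the summed cells, with an exact interval of the ratio that reached 0.139, and 0 against 7 UMIs in library 1. Wnt10b reached the minimum of 20 UMIs through the positive cells alone and so had to differ. The other genes of this rule were Gap43 (2 against 49 UMIs), a growth-associated membrane protein, Gas7 (36 against 147), Gngt2 (14 against 71), a G protein subunit, and Lurap1l (1 against 27). Sfrp2, Gap43, Gngt2 and Lurap1l had under 20 UMIs in the negative cells and reached that minimum through the positive cells. Within cells with Y-linked UMIs alone Gas7 and Gngt2 turned to log2 ratios of 0.43 and 0.18, whereas Fbn1 kept its direction, at -1.37 in these and -2.10 in cells with Xist UMIs alone.

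Higher in the negative cells was Prg4 (chromosome 1, 150449412 to 150466165, minus strand, GRCm38), which had 13350 against 230 UMIs, a ratio of 59.3 (95% interval 52.1 to 67.9), and 15 against 4 UMIs in library 1. It was found in 43 of the 107 matched negative and in 28 of the 107 matched positive cells. Its log2 ratio went from 5.83 to 4.41 when at least 5 of the 7 fibroblast genes were required, and to 0.72 without the 5 marker subsets, 1 of which was chosen by Prg4 and other lining genes. Hbb-bs and Hbb-bt, both globins, had 9558 and 2535 UMIs against 138 and 21, but 54.2% and 57.8% of these lay in 1 cell each, and without the cells of at least 20 globin UMIs their log2 ratios were -0.17 and -0.078. Clu, the chaperone clusterin, had 353 against 15 UMIs, with 14 against 0 in library 1. Its log2 ratio of 3.86 was 1.55 with at least 5 fibroblast genes, 5.17 within cells with Xist UMIs alone and 1.02 within cells with Y-linked UMIs alone. Comp had 1394 against 315 UMIs, a ratio of 4.52 (95% interval 4.00 to 5.13), and Angptl7, an angiopoietin-like secreted protein, 221 against 5. Rgcc, a regulator of the cell cycle, had 667 against 59 UMIs, Ecrg4, a secreted neuropeptide precursor, 556 against 58, and Col11a1, a fibrillar collagen of cartilage and tendon, 86 against 5. Fibin, a fin bud initiation factor homologue, had 84 against 10 UMIs and turned to a log2 ratio of -0.57 without the marker subsets. Of these 10 genes, Rgcc, Angptl7, Ecrg4, Clu and Comp stayed at least 2-fold higher without the subsets, with log2 ratios of 3.66, 2.38, 1.32, 1.25 and 1.11. Angptl7 then rested on 45 against 3 UMIs in 5 negative and 2 positive cells, with 64.4% of the 45 in 1 cell. With at least 5 fibroblast genes, Ecrg4 was at 2.07, Comp at 1.67, Col11a1 at 1.21 and Fibin at 0.77, the last no longer past 2-fold. Angptl7, Clu, Col11a1 and Fibin had under 20 UMIs in the positive cells and reached that minimum through the negative cells.

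Among the 94 remaining negative cells, 76 were paired with 76 of the 117 remaining positive cells (medians of 9017.5 and 9131.5 UMIs). Of 6780 genes compared, 87 (1.28%) were at least 2-fold higher and 125 (1.84%) at least 2-fold lower in the negative cells. The 46 genes found higher in both comparisons were 34.3% of the 134 and 52.9% of the 87, and the 84 found lower in both were 57.1% of the 147 and 67.2% of the 125. These comparisons share cells, so the overlap is a count and not a second measurement.

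Gldn (chromosome 9, 54286486 to 54341786, plus strand, GRCm38), which encodes gliomedin, a secreted and membrane-bound olfactomedin-domain protein, had 46 UMIs in 20 of the 76 remaining negative cells and 0 in the positive cells. Gldn reached the minimum of 20 UMIs through the negative cells alone, which fixed its direction. Fbln7, the adhesion protein fibulin-7, had 144 against 25 UMIs in 34 and 15 cells, a ratio of 5.84 (95% interval 3.80 to 9.33). Aqp1, a water channel, had 188 against 33 UMIs, a ratio of 5.78 (95% interval 3.97 to 8.64). These genes, chosen here after their values were seen, came from many cells, in that the highest cell held 17.4% of the Gldn, 11.1% of the Fbln7 and 19.1% of the Aqp1 UMIs. Ptn, the heparin-binding growth factor pleiotrophin, had 424 against 152 UMIs, a ratio of 2.83 (95% interval 2.34 to 3.43). Gpnmb, a transmembrane glycoprotein of phagocytes and bone cells, had 89 against 22 UMIs. Cxcl12, the chemokine that retains haematopoietic cells, had 657 against 388 UMIs, a ratio of 1.72 (95% interval 1.51 to 1.95), so that its counting interval lay above 1 but its ratio below 2. Rgcc, at 131 against 4 UMIs, was less evenly spread, with 57.3% of them in 1 cell.

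Fbn1 was lower in the remaining negative cells as well. It had 334 against 1246 UMIs, a ratio of 0.272 (95% interval 0.240 to 0.307). Cd55, the complement regulator also known as decay-accelerating factor, had 79 against 344, and Sema3c, a secreted semaphorin, 69 against 267. Anxa3, an annexin, had 49 against 183 UMIs. Eln, the elastin gene, had 216 against 604 UMIs, a ratio of 0.363 (95% interval 0.309 to 0.424), and Igfbp5, an IGF-binding protein, 581 against 1508, a ratio of 0.391 (95% interval 0.354 to 0.430). Igfbp5 did not pass 2-fold over the whole class, where its log2 ratio was -0.95. Aldh1a3, an enzyme of retinoic acid synthesis, had 0 against 45 UMIs in the remaining cells but 39 against 54 over the whole class, since 6 of the 8 lining-gene cells, which were left out, held 35 UMIs of it.

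Gene lists described the comparison by groups, each set beside the 1.64% and 1.80% of all genes above. Of 20 genes known from Pi16 fibroblasts other than Pi16 and Dpp4, 0 were at least 2-fold higher and 9 at least 2-fold lower, with a median log2 ratio of -0.94 against -0.05 for all genes. These 9 were Efhd1, Cd55, Fbn1, Sema3c, Uchl1, Anxa3, Wnt2, Dact2 and Cd248. Uchl1 had 9 against 45 UMIs in the remaining cells and so reached the minimum of 20 UMIs there through the positive cells. Cd248, the surface protein endosialin, had 246 against 695 UMIs, a ratio of 0.362 (95% interval 0.312 to 0.419). Ly6a and Ly6c1, surface proteins of these fibroblasts, moved less, with ratios of 0.671 and 0.662, and Has1, a hyaluronan synthase, lay the other way at 2.00. Without the marker subsets the list still held 9 genes at least 2-fold lower of 19 compared, beside 1 higher (Has1), with a median of -0.83.

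Of 18 elastic fibre and microfibril genes compared, 5 were at least 2-fold lower (Fbn1, Eln, Fbln2, Efemp1 and Emilin2), none was higher and the others did not pass 2-fold, with a median log2 ratio of -0.62, and without the subsets it was -0.34 with the same 5 genes. Fbln2, which encodes fibulin-2, had 247 against 658 UMIs, a ratio of 0.384 (95% interval 0.330 to 0.445), but 28 against 12 UMIs in the library 1 pairs, the opposite direction. By contrast, 12 general fibroblast genes outside the gate had a median of -0.04, with Thy1 as the 1 gene past 2-fold, lower at 121 against 299 UMIs. Of 14 fibrillar and fibril-associated collagens only Col11a1 was past 2-fold, and Col3a1 had a ratio of 0.975 (95% interval 0.953 to 0.997).

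In the matched cells of library 2, the genes known from Col15a1 fibroblasts did not stand higher in the negative cells. Of 12, 0 were at least 2-fold higher and 2 lower (Nid1, the basement membrane protein nidogen-1, and Smoc2, a secreted calcium-binding protein), with a median of -0.24. Without the marker subsets neither passed 2-fold, with log2 ratios of -0.99 and -0.82. Col15a1 itself had 217 against 263 UMIs, a ratio of 0.844 (95% interval 0.701 to 1.01), and 9 against 0 UMIs in library 1. Nid1 had 242 against 664 UMIs, a ratio of 0.373 (95% interval 0.320 to 0.432). Over all cells of library 1 the list stood higher in the negative cells. It summed there to 24984 CPM in the negative and 11710 CPM in the positive cells, led by Gsn in both. Of 12 skeletal stem and periosteal cell genes compared in library 2, 1 was past 2-fold, the ectonucleotidase Nt5e at 43 against 4 UMIs, and the median was 0.08. Nt5e was compared only through its UMIs in the negative cells, which fixed its direction. Without the marker subsets none of 10 passed, and Nt5e had too few UMIs to be compared. Prrx1, a limb mesenchyme transcription factor, had 291 against 294 UMIs, a ratio of 1.01 (95% interval 0.858 to 1.19), Lrp1, an endocytic receptor, 0.833 (95% interval 0.756 to 0.919), and Ctsk, the protease cathepsin K, 1.29 (95% interval 1.16 to 1.45). The counting interval of Prrx1 held 1, whereas those of Lrp1 and Ctsk did not, with Lrp1 lower and Ctsk higher in the negative cells. These intervals cover counting error only, neither gene passed 2-fold, and the log2 ratios of all genes had quartiles of -0.27 and 0.17.

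Of 12 chemokine and cytokine genes compared, 5 were at least 2-fold lower (Cxcl13, Ccl2, Ccl7, Ccl11 and Il33) and none higher. Ccl11, the eosinophil attractant eotaxin, had 50 against 225 UMIs, and Il33, an alarmin, 13 against 73, while Cxcl12 had 714 against 478, a ratio of 1.53 (95% interval 1.36 to 1.72). Without the subsets 2 genes, Ccl11 and Il33, stayed at least 2-fold lower. None of the 5 had a UMI in the paired cells of library 1, where Cxcl12 had 11 against 0. Immediate early and stress genes, which are known to rise during tissue dissociation, had a median of 0.55 with 2 of 16 past 2-fold, Atf3 (221 against 89 UMIs) and Zfp36 (203 against 90), and of 0.72 without the subsets. Fos, the most abundant of them, had 1250 against 833 UMIs, and 44 against 0 in library 1. Their part in the other differences was not tested.

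Secreted regulators and matrix genes moved in both directions. Of 6 secreted Wnt antagonists compared, Sfrp1 and Wif1 were at least 2-fold higher and Sfrp2 lower. Sfrp1 had 61 against 19 UMIs, and Wif1, the Wnt inhibitory factor, 47 against 0. Wif1 reached the minimum of 20 UMIs through the negative cells alone and so had to differ. Sfrp1, with under 20 UMIs in the positive cells, also reached it through the negative cells. The 12 BMP ligands and antagonists compared had 1 gene past 2-fold, Fstl1, a secreted follistatin-like protein, at 2013 against 4745 UMIs, and the 9 IGF axis genes had none, with a median of 0.26. Igf1, the ligand, had 862 against 786 UMIs, a ratio of 1.12 (95% interval 1.02 to 1.24), and Igfbp6 3118 against 4545, with the opposite order in library 1 at 210 against 101. Of 16 matricellular genes, Thbs1, a thrombospondin, and Ccn2, the connective tissue growth factor, were at least 2-fold higher, and Ccn3 and Smoc2 lower. Among 12 small leucine-rich proteoglycans, Fmod and Chad were higher, and Kera and Epyc lower. Of 14 matrix proteinases and inhibitors, Htra4 was higher, and Mmp23, Htra3 and Adamts15 lower. Clu was higher and Cd55 lower among 10 complement genes. Sox9 was the 1 gene past 2-fold of 19 mesenchymal transcription factors, at 37 against 8 UMIs, and was higher. With 8 UMIs in the positive cells, it reached the minimum of 20 UMIs through the negative cells. Without the marker subsets Sfrp1, Sfrp2, Fstl1, Epyc, Mmp23, Clu, Cd55 and Sox9 were still past 2-fold in these directions. Thbs1, Ccn2, Ccn3, Smoc2, Htra3 and Adamts15 were not, and Htra4, a gene of the lining rule, turned to a log2 ratio of -1.51. Wif1, Fmod, Chad and Kera then had too few UMIs to be compared, while Tnc (higher) and Thbs4 (lower) passed 2-fold among the matricellular genes, Mmp3 (higher) among the proteinases, and Igf2 (higher) and Igfbp5 (lower) in the IGF axis.

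Smaller marker lists held few genes to compare, and a gene of low level that reached 20 UMIs mainly through 1 class had to differ, so the counts that follow are no result about the lists. The mural list had 1 higher and 0 lower of 5, with Rgs5 as the higher gene, and summed to 261 CPM in the negative and 64.7 CPM in the positive cells. The endothelial list had 0 higher and 1 lower of 1 (Tek, 15.2 and 53.3 CPM over the list). The muscle list had 1 higher and 0 lower of 5 (Tnnc2), the Schwann and perineurial list 1 higher and 0 lower of 1 (S100b), the osteoblast list 1 higher and 0 lower of 3 (Spp1) and the neutrophil and monocyte list 0 higher and 0 lower of 2. The Lepr Adipoq list had 1 higher and 0 lower of 8 (the transcription factor Foxc1). Cell cycle genes had 3 higher and 0 lower of 10, the higher ones being Ube2c, Birc5 and Rrm2, and 1 cell cycle gene could be compared without the subsets. Without them Tek, Spp1 and Foxc1 were still past 2-fold. No muscle gene, 1 mural gene and 1 Schwann gene then had enough UMIs to be compared, and the latter 2 did not pass 2-fold. The part of these other cell types in the differences was not tested.

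Markers of other cell types moved with the negative class and its subsets. Of 9 tenocyte genes compared, 5 were at least 2-fold higher and 1 lower, of 7 lining fibroblast genes 5 and 1, of 4 chondrocyte genes 4 and 0, and of 7 erythroid genes 7 and 0. These counts are no result about the lists, since a gene that reached 20 UMIs through the negative cells alone had to be higher in them. Of 12 chondrocyte genes 4 reached that sum, and over all cells the list had 446 UMIs in the negative and 46 in the positive cells. Over all cells the tenocyte list summed to 2909 CPM in the negative and 857 CPM in the positive cells of library 2, led by Comp in both, and to 1251 and 991 CPM in library 1, where the immediate early gene Egr1 led it in the negative cells. The lining list summed to 12764 and 811 CPM in library 2, of which Prg4 gave 13357 of the 14316 negative UMIs, and to 807 and 1037 CPM in library 1, the opposite order. Cd55, which is also in the Pi16 list, was the most abundant lining gene in the positive cells. The erythroid list summed to 14260 and 338 CPM in library 2 and to 767 and 1172 CPM in library 1. Of 6 B lymphoid genes 2 were lower (Igll1 and Vpreb1), and Ebf1, which fibroblasts also express, gave 862 of the 997 negative UMIs of that list. Without the subsets the tenocyte list had 1 higher and 1 lower of 4 genes, and the erythroid list had 0 of 4 in either direction, as leaving out cells chosen by these genes largely sets. Doublets were not called, and their part was not tested. The plot of lists sets both comparisons beside each other.

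**Figure D4:**
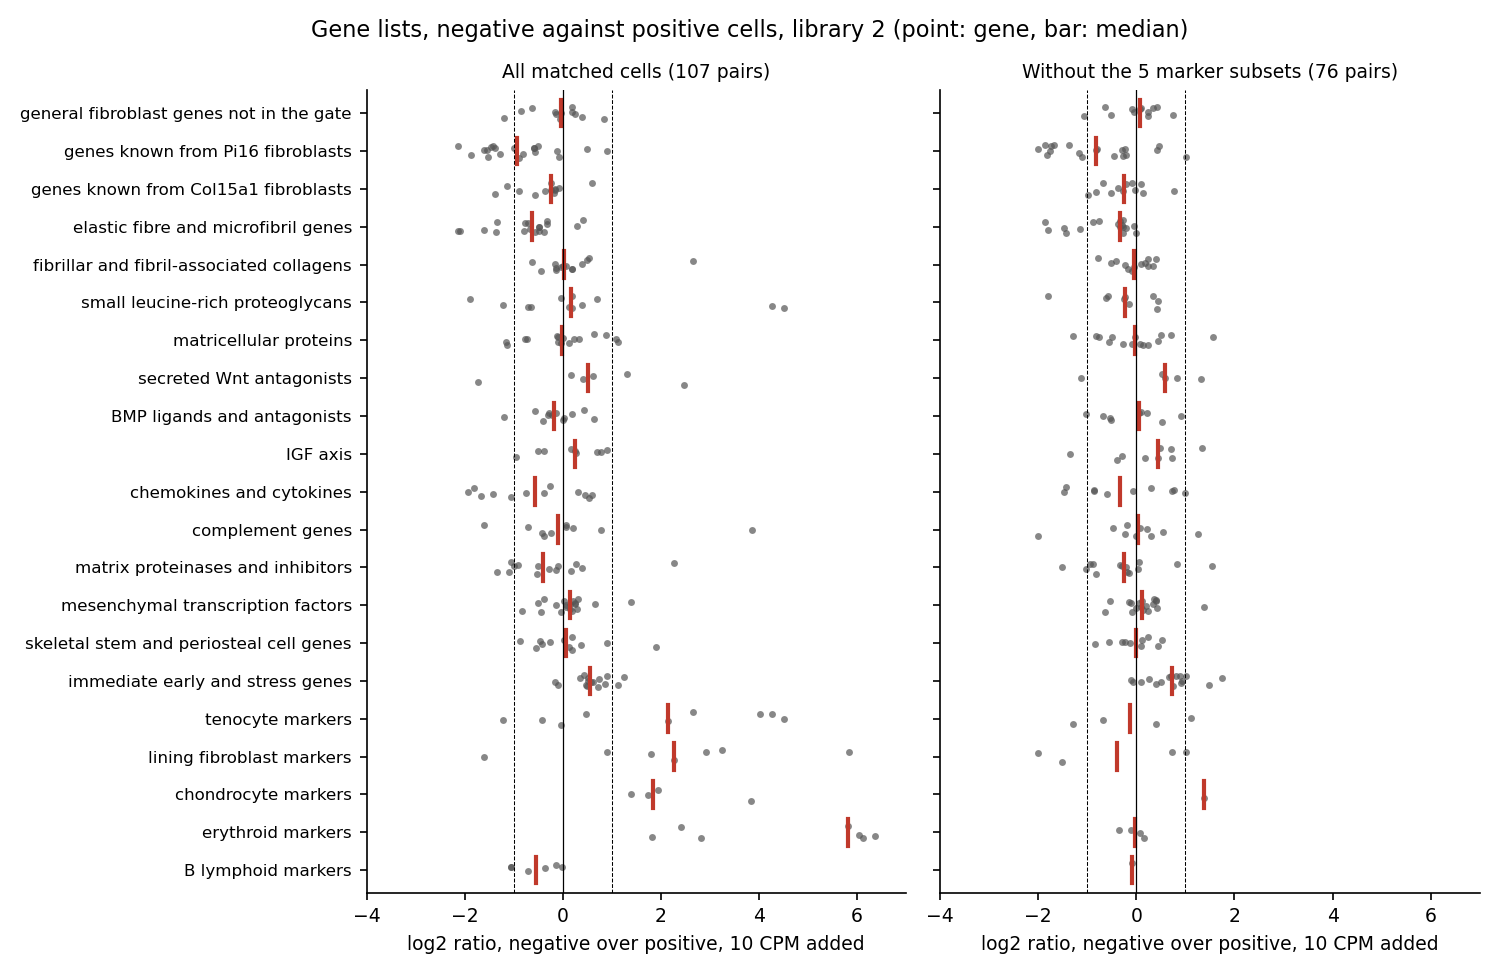
Each point is a gene of the list named at the left, at its log2 ratio of CPM plus 10 in negative over positive cells of library 2, and each bar is the median of the list. The left panel has all 107 matched pairs and the right panel the 76 pairs without the 5 marker subsets. Broken lines mark 2-fold. The medians of the tenocyte, lining and erythroid genes lie past 2-fold to the right in the left panel and not in the right panel, which leaves out cells chosen by those genes, the 1 chondrocyte gene left in the right panel (Sox9) lies to the right, and the medians of the genes known from Pi16 fibroblasts and of the microfibril genes lie below 0 in both.

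Levels were also followed over 4 steps of Pi16 and Dpp4 UMIs in library 2, namely 0 (127 cells), 1 (30), 2 to 9 (65) and 10 or more (64). Fbn1 stood at 386, 620.5, 1004 and 2377 CPM over these steps. Mfap5 stood at 1240.2, 1687, 2941 and 5775 CPM, and Cd248 at 236, 348, 458 and 776 CPM. Fbn1 and Cd248 were lowest in the cells without Pi16 and Dpp4 and highest in those with 10 or more UMIs. Mfap5 had the same order, but it is a gene of the gate, so its levels describe the choice and were not tested. Cd55 was at 142 and 103 CPM in the first 2 steps, whose counting intervals overlapped, and at 663 CPM in the last. Ptn ran the other way, at 572, 414, 281 and 106 CPM, as did Fbln7 at 194, 84.6, 60.1 and 25.8 CPM. The cells with 1 UMI thus lay between the classes for Fbn1, Cd248, Ptn and Fbln7. They lay with the negative cells for Cxcl12, at 697 and 912 CPM against 371 and 481 CPM. Gldn had 45.5 CPM at 0 UMIs and 4.70 CPM at 1 UMI, the latter from a single UMI. Eln was not ordered, with 266, 625, 1004 and 358 CPM, and its highest level lay in the cells with 2 to 9 UMIs. Median depths were 8512, 7381, 9078 and 11234 UMIs. These steps were not matched for depth, and its part in their order was not tested.

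**Figure D5:**
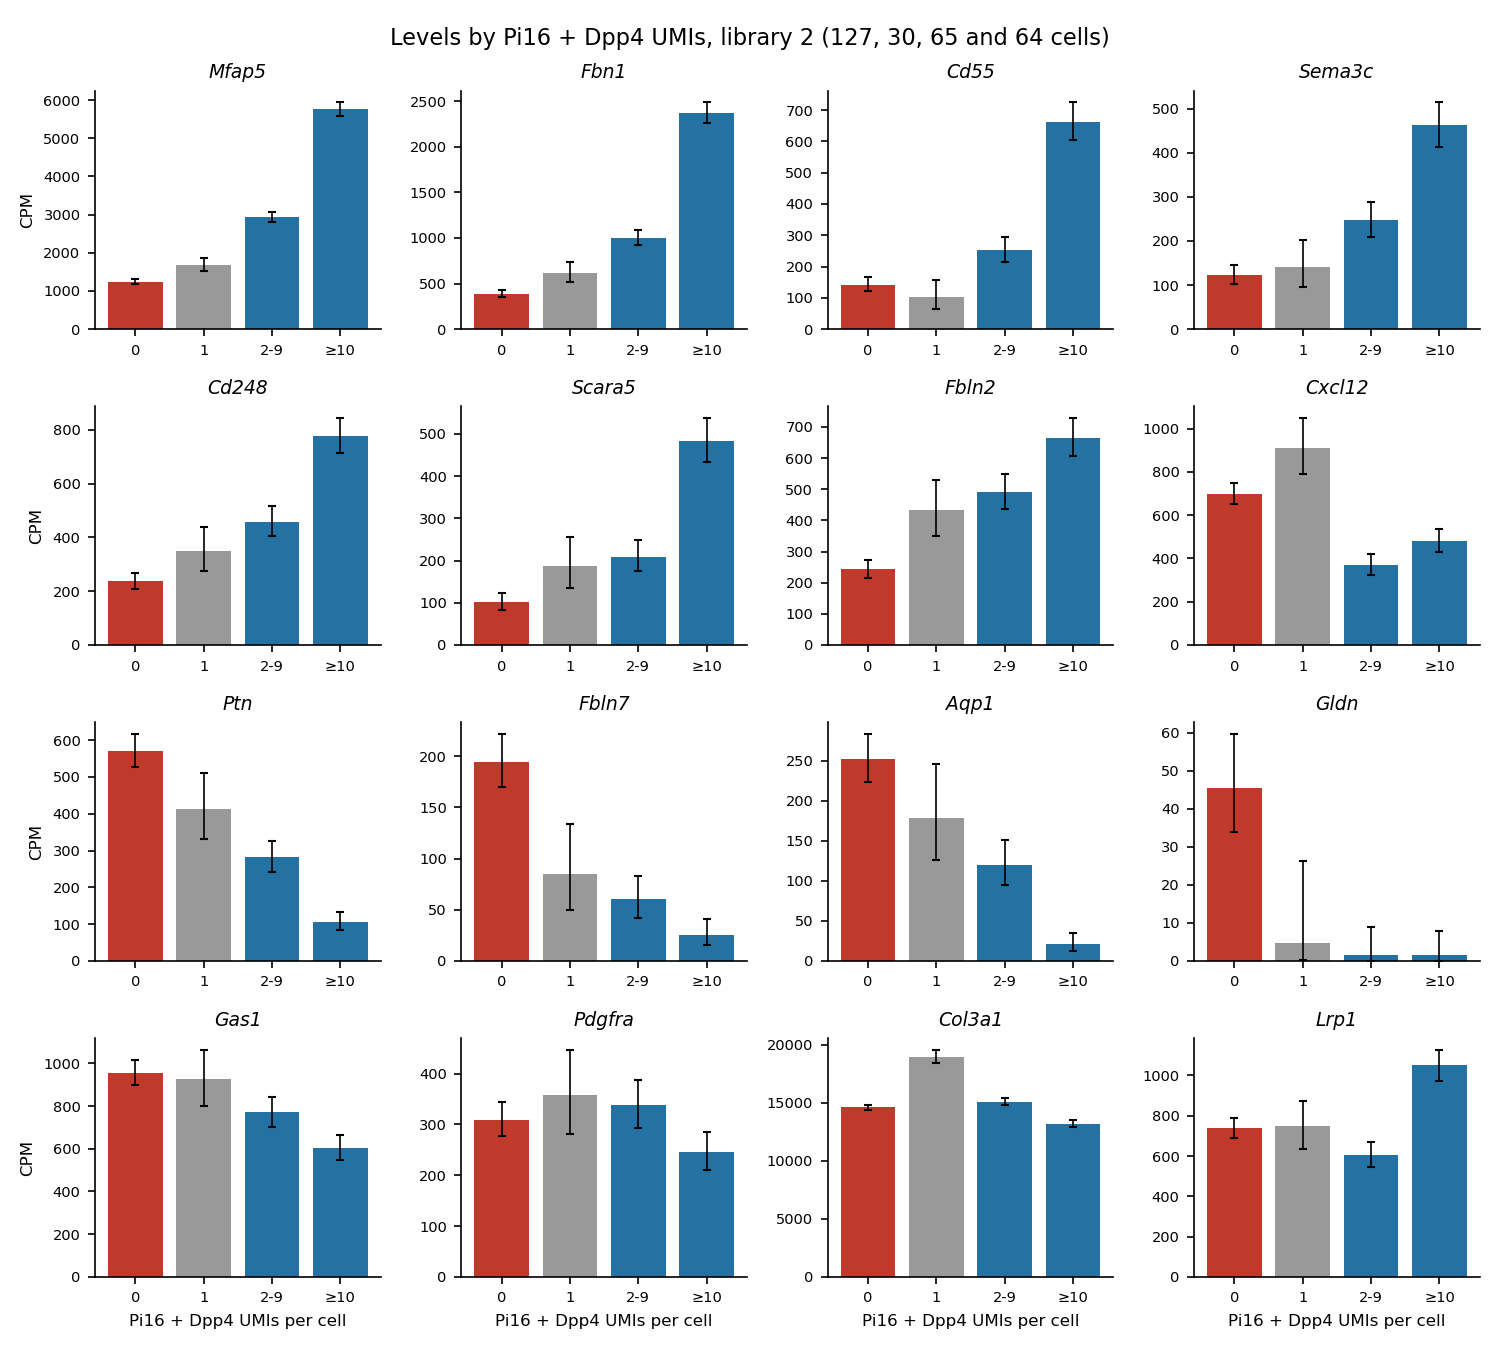
Bars are CPM of the summed cells of library 2 for 16 genes, by the number of Pi16 and Dpp4 UMIs per cell (0, 1, 2 to 9, and 10 or more), and error bars are exact Poisson 95% intervals of the sum. Mfap5, Fbn1, Cd248, Scara5 and Fbln2 stand lowest at 0 UMIs and highest at 10 or more, Ptn, Fbln7 and Aqp1 highest at 0 UMIs, and Col3a1 and Lrp1 follow no order. The genes were chosen after their values were seen, and Mfap5 is a gene of the gate.

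Against the 101 Tnmd-positive cells of library 2, 256 of 8096 genes (3.16%) were at least 2-fold higher in the negative cells and 212 (2.62%) lower, and of the 18 genes known from Pi16 fibroblasts that were compared 9 were higher and 1 lower. This comparison was added once the numbers of cells were known. Ly6a had 2300 UMIs in the negative cells, a ratio of 2.81 (95% interval 2.59 to 3.05), and 29 UMIs in the 2 cells of library 1 against 11 in 5. Cxcl12 had a ratio of 4.12 (95% interval 3.49 to 4.89), Gsn, the actin-severing protein gelsolin, of 3.61 (95% interval 3.45 to 3.77), and Eln of 8.50 (95% interval 5.89 to 12.6). Scara5, Gdf10, a ligand of the BMP family, Fmo2, a monooxygenase, Lrrc17, Scg3, a granin, and Hmcn2, a hemicentin, were the further named genes higher in the negative cells, and Prg4 was 1 of them at a log2 ratio of 3.93. Without the marker subsets, 1 of which was chosen by Prg4 and other lining genes, it was -1.07. Lower were Spp1, the bone matrix protein osteopontin, with 45 against 2546 UMIs, Kera with 9 against 894, Scx with 18 against 526, and Acan, the cartilage proteoglycan aggrecan, with 7 against 458. Col11a1, Col11a2, Chodl, Ptx4, Prph and Col10a1 were also lower, but Col10a1 came from 2 of the Tnmd cells and turned within both sexes. Kera, Scx, Acan, Col11a2, Chodl, Ptx4, Prph and Col10a1 were below the UMI minimum in the negative cells and reached it through the Tnmd cells. Chodl had 0 UMIs in the negative cells, which fixed its direction. Scara5, Fmo2, Lrrc17 and Scg3 were below the minimum in the Tnmd cells and reached it through the negative cells. Lower levels of the tendon genes Kera and Scx are also close to the rule that chose the Tnmd cells. Markers of other cell types moved with this comparison. The chondrocyte list was lower in the negative cells for 12 of 12 genes, with a median log2 ratio of -4.37, and summed to 398 CPM against 11379.9 CPM in the Tnmd cells, with Col2a1 as its most abundant gene in both. The muscle list was lower for 5 of 6 and the osteoblast list for 3 of 4. The lining list was higher for 7 of 7, at 12764 against 936 CPM, and the erythroid list for 7 of 7, at 14259.7 against 208 CPM. A gene of these lists could reach the UMI minimum through 1 class alone and then had to differ. These counts are therefore no result about the lists. The part of these other cell types in the differences was not tested.

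The Lepr Adipoq gate (no Ptprc, outside the other gates and at least 2 UMIs of Lepr and Adipoq) held 12 cells in library 2 and 51 in library 1, with a median of 3457.5 UMIs in library 2. Of 6285 genes compared, 1264 (20.1%) were at least 2-fold higher in the negative cells and 631 (10.0%) lower. The 12 cells summed to 80155 UMIs, against 1121550 in the negative cells. Ly6c1 had 1309 UMIs in the negative cells and 0 in the 12, at least 31.2-fold higher against a floor of 3 counts over the summed cells. Aspn, the proteoglycan asporin, was at least 22.2-fold higher, Col14a1, a fibril-associated collagen, 19.7-fold, Ltbp4, a TGF-beta binding protein, 18.4-fold and Dpt, the matrix protein dermatopontin, 16.6-fold. The exact intervals allow smaller ratios than this floor, with lower limits of 25.3 for Ly6c1, 18.001 for Aspn, 16.0 for Col14a1, 14.96 for Ltbp4 and 13.5 for Dpt. All 5 had 0 UMIs in the 51 gate cells of library 1, where the 2 negative cells held between 3 and 26. In library 2 all 5 reached the minimum of 20 UMIs through the negative cells alone, which fixed their direction. Ly6a, Nbl1, Igfbp6, Ramp2 and Fndc1 completed the named genes. With 5 or fewer UMIs each in the gate cells, they too reached that minimum through the negative cells. Lower in the negative cells were Hp, haptoglobin, with 4 against 51 UMIs and 0 against 1261 in library 1, Alpl, the alkaline phosphatase of osteogenic cells, with 4 against 68, and Tnc, tenascin C, with 59 against 108. Mmp9, Mmp13, Spp1, Gpc1, Trf, Rpl39l and Ifitm5 were lower too. Hp, Alpl, Mmp9, Mmp13, Trf, Rpl39l and Ifitm5 had under 20 UMIs in the negative cells and reached the minimum through the gate cells. All 108 Ifitm5 UMIs of the gate came from 1 cell, and within cells with Xist UMIs alone its log2 ratio was 0.19. Trf turned to 1.33 within cells with Y-linked UMIs alone. Cxcl12 stood at 3244 CPM in the gate and 697 CPM in the negative cells, and in library 1 at 13049 and 444 CPM. Markers of other cells and RNA quality moved with this comparison. The osteoblast list was lower for 4 of 4 genes and summed to 4990 CPM in the 12 gate cells (1481 CPM in the 51 of library 1) against 84.7 CPM in the negative cells. The erythroid list was higher for 7 of 7, and immediate early genes for 10 of 16 with none lower. The erythroid list summed to 14260 against 287 CPM in library 2, where the globin cells set apart above are part of the negative sum. In library 1 it had the opposite order, at 767 against 38726 CPM. With the gate sum this shallow, a gene of these lists could reach 20 UMIs through the negative cells alone and then had to differ, so the counts of higher genes are no result about the lists. Of the lower osteoblast genes, Alpl and Ifitm5 reached 20 UMIs through the gate cells, so that count is no result about its list either. The median share of mitochondrial UMIs was 4.24% in the gate and 1.58% in the negative cells. Their part in the result was not tested.

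Against all 1828 other Ptprc-free cells of library 2, made up of 359 osteoblast, 180 chondrocyte, 101 Tnmd and 12 Lepr Adipoq gate cells and 1176 cells of no gate, 1002 of 13708 genes (7.31%) were at least 2-fold higher and 1037 (7.56%) lower. General fibroblast genes were higher for 10 of 12, which is close to the rule that chose the cells. Of 10 complement genes 8 were higher and none lower, with a median log2 ratio of 3.16, among them Serping1, the C1 inhibitor, at a ratio of 27.2 (95% interval 24.7 to 30.1). Elastic fibre and microfibril genes were at least 2-fold higher for 13 of 19, with a median of 2.49. Of 18 genes known from Pi16 fibroblasts 14 were higher and 1 lower. Of 21 mesenchymal transcription factors 11 were higher and 1 lower (Sox9, which cartilage requires). Ly6a at a ratio of 33.3 (95% interval 31.1 to 35.7), Col14a1 at 39.4 (95% interval 34.8 to 44.6) and Dpt at 38.1 (95% interval 33.4 to 43.6) led the named genes, with Ltbp4, Gsn, Ly6c1, Fstl1, Col3a1 and Cxcl12 after them. Lower were the bone genes Spp1 (45 against 169332 UMIs) and Bglap (13 against 41546), the cartilage genes Col10a1, Hapln1, Col9a3, Col11a2, Acan and Col2a1, and the neutrophil genes S100a8 and S100a9. All 20 named genes had the same direction in library 1, as the rule for naming them required, where Cxcl12 had 8964 UMIs in the other cells. Markers of other cell types moved with this comparison. Lower were 16 of 16 cell cycle, 12 of 12 chondrocyte, 9 of 10 osteoblast and 7 of 8 B lymphoid genes. So were 7 of 8 neutrophil and monocyte, 6 of 7 muscle, 4 of 8 erythroid and 7 of 16 immediate early genes. None of these lists had a higher gene, whereas the lining list was higher for 7 of 7. Their part in the differences was not tested.

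The 2 negative cells of library 1 resembled those of library 2 in part. They held Fbn1 at 928 CPM, against 3823 CPM in the 11 positive cells of that library, and Cd55 at 202 against 849 CPM. Their Igfbp6, an IGF-binding protein, stood at 8476 CPM with a counting interval of 7368 to 9703 CPM, whereas the negative cells of library 2 had 2933 CPM. Lum had 4 UMIs in them, or 161 CPM, against 2136 CPM in library 2. For Igfbp6 and Lum the levels of the 2 libraries thus lay apart by more than counting error, which leaves out the spread between single cells. The 2 cells of library 1 give no measure of the spread between libraries.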

How the data were processed

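Single cells of mouse periosteum were profiled with the 10x Genomics 3′ v3.1 chemistry in 2 libraries. The authors made gene by barcode tables of UMI counts, which were deposited without normalization. The submitters' processing notes name Cell Ranger 6.1.2 and the mm10 build, whereas the study's methods name GRCh38, so the annotation release is not given in the sources used here. Gene positions are from GENCODE M21 (GRCm38).

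Barcodes with at least 500 genes, 500 UMIs and at most 10% mitochondrial UMIs were kept (6276 and 2893 cells). No doublet caller was run and no doublets were removed. The members and the gene lists were chosen with earlier results of these data known. The planned edgeR test over library sums was left out, since a minimum of 5 cells of a class in each library had been set and library 1 held 2 negative cells. Instead, UMIs were summed per class and library. Negative and positive cells were paired within 0.1 log10 units of UMIs, and genes with at least 20 UMIs over both sums in library 2 were compared. A gene with no or few UMIs in 1 of the 2 sums reached this minimum through the other sum, which fixed its direction. A gene was called past 2-fold when the log2 ratio of CPM, with 10 CPM added, was at least 1 in size. Ratios without the added CPM have exact conditional binomial 95% intervals, levels exact Poisson and shares exact binomial ones, and all cover counting error only.

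Named genes were the 10 with the largest log2 ratio in each direction in library 2 with the same direction in library 1, the genes of the lists, the 15 genes of highest variance over mean at 3000 UMIs per cell, and the gate genes. Genes named outside this rule were chosen after their values were seen. Mx1, of the skeletal stem list, was not in the gene table. The scripts were checked on simulated data and used Python 3.11.15, numpy 2.4.6, scipy 1.17.1, pandas 2.3.3 and matplotlib 3.10.9.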

Additional observations from a re-analysis of the deposited data

Results flagged for a closer look

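The reporter tdTomato lay outside the comparisons, and its 387 UMIs in the negative cells of library 2 were above the limit of 3 counts that a count of 0 allows. They came to 345 CPM, beside 547 CPM in the positive cells, although both libraries are labelled WT.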

How the results depend on the processing

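The fit with a replicate block, the DESeq2 Wald test and the fit of negative and positive sums alone were not run, by the chosen minimum of 5 cells of a class in each library and not because they could not be fitted. Of the counts of genes past 2-fold under alternatives, 82 were within 1.5 times the main count and 13 were not, and of the named genes' log2 ratios 634 moved by less than the counting interval, 289 moved further and 17 turned. The main values are those of library 2 alone, so leaving out library 1 could change no count and no ratio. Leaving out the low-count filter could change no ratio either. Each of these 2 settings gave 80 of the 634 ratios, which were thus fixed in advance. In library 1 alone and library 2 alone, the counts ran from 36 to 134 higher and 68 to 147 lower for the matched positive cells (338 genes compared in library 1 and 8155 in library 2), 482 to 1264 and 631 to 1303 for the Lepr Adipoq gate (3942 and 6285), 61 to 256 and 111 to 212 for the Tnmd cells (472 and 8096), and 1002 to 3090 and 1037 to 3402 for the other cells (13813 and 13708). The smaller counts of library 1 against the matched positive and Tnmd cells are thus larger shares of the genes compared. Without the low-count filter 1715 of 14037 genes were lower than in the Lepr Adipoq gate. The following alternatives were chosen after seeing the data. Without the 5 marker subsets, 87 of 6780 genes were higher than in the matched positive cells, and the log2 ratios turned to -0.12 for Hbb-bt, -0.36 for Hbb-bs and -0.57 for Fibin, and to -1.07 for Prg4 against the Tnmd cells. Without cells of at least 20 globin UMIs, Hbb-bt was at -0.078 and Hbb-bs at -0.17. Within cells with Xist UMIs alone, Hbb-bt was at -0.12 and Hbb-bs at -0.20, Ifitm5 turned to 0.19 against the Lepr Adipoq gate, and 133 of 5792 genes were lower than in the Tnmd cells, with Col10a1 at 0.50. Within cells with Y-linked UMIs alone, 515 of 1850 genes were higher and 202 lower than in the Lepr Adipoq gate, with Trf at 1.33, and Col10a1 was at 0.59 against the Tnmd cells. There, against the matched positive cells, Hbb-bt was at -0.78, Hbb-bs at -0.46, Fibin at -0.35, Gas7 at 0.43 and Gngt2 at 0.18. The cause of these changes was not tested, apart from the globin and marker cells that the alternatives leave out. Fbn1 stayed lower in the negative cells under each alternative run. Scaling by the median of ratios moved the median of all genes by at most 0.08. The 2 cells of library 1 limit every value given for it.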
